A study of Mus musculus with 6 samples.

Results

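The p53 pathway was described through 10 genes in cultured mouse chondrocytes that had lost Ppp1r15b and in controls. The genes were Trp53, which encodes p53, its inhibitor Mdm2, the tumour suppressor locus Cdkn2a, and 7 genes that p53 switches on, namely Cdkn1a, Ccng1, Bax, Bbc3, Trp53inp1, Phlda3 and Zmat3. They were chosen by symbol, all 10 stood among the 17666 genes of the deposited gene table, and all 10 passed the filter on low counts that left 13692 genes to test. The KO group held 3 libraries of Ppp1r15bPrx1;Rosa26mT/mG cells, in which Prx1-Cre deletes Ppp1r15b as the name gives it, and the WT group held 3 libraries of Prx1-Cre;Rosa26mT/mG cells, so that both groups carried Cre and the reporter. Cells of newborn (P0) knee joints were sorted for GFP, which marks cells where Cre has acted, and the growth protocol adds culture in DMEM until maturity, a step the design text leaves out. Prx1-Cre acts in limb mesenchyme, from which other cell types besides cartilage also arise. Whether each library had its own animal or culture is not stated in the labels; the spread behind every p-value is that of these libraries and may be technical.

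Ppp1r15b encodes the constitutive subunit of the phosphatase that acts on the translation factor eIF2alpha. p53 is a transcription factor that is made all the time and kept scarce because Mdm2, a ubiquitin ligase and itself a p53 target, marks it for degradation. DNA damage, blocked ribosome assembly or oncogene activity stabilise the protein, which then raises genes for cell cycle arrest and cell death. Since p53 is regulated mostly as a protein, the level of its RNA is a poor guide to its activity, and the levels of its target genes are read instead. Cdkn2a makes a pair of unrelated proteins from separate first exons, the CDK inhibitor p16 (Ink4a) and the Mdm2 inhibitor p19 (Arf), and both are known for their rise in ageing and cultured mouse cells.

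Library totals were 18380880 to 19581607 estimated counts in KO and 18757808 to 19643951 in WT. Ppp1r15b had 19.3, 23.5 and 27.5 CPM (counts scaled to a common library size after TMM) in KO replicates 1 to 3, against 86.8, 52.2 and 89.2 CPM in WT replicates 1 to 3, which is -1.70 on the log2 scale (SE 0.242; adjusted p = 0.0297 by edgeR). KO replicate 3 stood apart from the other KO libraries, and WT replicate 2 from the other WT libraries, so values of the 10 genes are given per library. In log2 CPM, KO replicate 3 correlated at 0.9346 and 0.9337 with KO replicates 1 and 2, and at 0.9417 to 0.9515 with the WT libraries. KO replicate 1 correlated at 0.965 with WT replicate 2. The libraries thus did not group fully by genotype. All 10 chondrocyte markers were detected in every library, with a summed level of 38320 to 39690 CPM in KO and 35850 to 48100 CPM in WT, and 0 of 10 were called. All 8 adipocyte markers fell, to a summed 43.1 to 47.5 CPM in KO, against 442 to 889 CPM in WT, and Cidec was at 0 in KO replicates 2 and 3. Over all genes tested 0.884% rose and 1.63% fell. Of 9 macrophage markers 1 (C1qa) fell and 8 were lower in every KO library, as were 14.5% of all genes. The macrophage sum was 14.6, 14.9 and 138 CPM in KO replicates 1 to 3, against 180 to 338 CPM in WT. Of 8 skeletal muscle markers 0 were called, and the sum was 17.9, 17.8 and 266 CPM in KO replicates 1 to 3, against 755, 93.4 and 686 CPM in WT replicates 1 to 3, with Ckm at 0 in KO replicate 1. Endothelial markers, of which 0 of 5 were called, summed to 6.47 to 7.32 CPM in KO and 7.18 to 11.4 CPM in WT. In such bulk RNA, fewer cells of a type and less RNA per cell cannot be told apart. The part of these other cell types in the values below was not tested.

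The sequences next to the starts of these genes show where the p53 binding motif lies in them. RefSeq promoter windows on GRCm38.p6, 250 bases before to 50 after a start, were found for 8 of the 10 genes, 12 windows in all; Zmat3 and Trp53inp1 were not matched. The p53 half-site, a 10-base motif that reads the same on both strands, was in 5 of these 12 windows (41.7%) and in 8.36% of all 32851 windows. A pair of half-sites within 13 bases of each other, the arrangement of a full p53 site, was in 1 of the 12, beside 24 of 32851 (0.0731%). It lay at the upstream start of Cdkn1a, the first half-site beginning at position -73 and the second at -51, counted from the start base as 0. The downstream start of Cdkn1a held no half-site. Trp53, Ccng1, Mdm2 and Bax held 1 each, Phlda3, Bbc3 and Cdkn2a none. Only exact matches to the motif were counted. The 10 bases directly after the second Cdkn1a half-site depart from the motif only at their first base, so they were not marked. The Phlda3 window ends in gaacatgt, which matches the motif up to where the window stops. Whether a half-site lies there could not be scored. A match describes letters only, and lack of one says nothing of inexact sites or of p53 sites elsewhere in the gene. Shown are both Cdkn1a windows, whose transcripts are compared below, those of Ccng1, Mdm2 and Bax, which like Cdkn1a were highest in KO replicate 3 and lowest in KO replicates 1 and 2, and that of Phlda3, which was nearer to Cdkn1a in library pattern than Mdm2 or Bax and holds no half-site. Each reads 5′ to 3′ on the gene's strand, and capitals mark half-sites.
Cdkn1a upstream start, chr17:29090729-29091028, plus strand: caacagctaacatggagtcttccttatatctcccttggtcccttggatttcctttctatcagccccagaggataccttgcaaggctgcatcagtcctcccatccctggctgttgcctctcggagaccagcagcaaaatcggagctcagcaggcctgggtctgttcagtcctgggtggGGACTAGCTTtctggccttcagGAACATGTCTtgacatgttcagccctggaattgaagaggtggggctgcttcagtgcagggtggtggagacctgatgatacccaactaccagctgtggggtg
Cdkn1a downstream start, chr17:29093519-29093818, plus strand: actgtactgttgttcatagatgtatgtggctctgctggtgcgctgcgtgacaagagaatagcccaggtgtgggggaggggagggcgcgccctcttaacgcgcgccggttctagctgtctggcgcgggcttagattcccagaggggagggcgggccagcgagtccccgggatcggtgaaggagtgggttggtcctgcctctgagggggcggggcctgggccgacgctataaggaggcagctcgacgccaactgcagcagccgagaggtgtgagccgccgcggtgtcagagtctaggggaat
Ccng1, chr11:40755237-40755536, minus strand: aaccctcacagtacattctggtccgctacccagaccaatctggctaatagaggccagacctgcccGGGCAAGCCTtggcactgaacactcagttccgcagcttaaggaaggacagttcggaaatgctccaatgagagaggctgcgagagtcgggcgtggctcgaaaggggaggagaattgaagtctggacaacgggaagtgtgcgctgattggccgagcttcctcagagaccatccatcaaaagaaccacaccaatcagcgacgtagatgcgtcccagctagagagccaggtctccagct
Mdm2, chr10:117710709-117711008, minus strand: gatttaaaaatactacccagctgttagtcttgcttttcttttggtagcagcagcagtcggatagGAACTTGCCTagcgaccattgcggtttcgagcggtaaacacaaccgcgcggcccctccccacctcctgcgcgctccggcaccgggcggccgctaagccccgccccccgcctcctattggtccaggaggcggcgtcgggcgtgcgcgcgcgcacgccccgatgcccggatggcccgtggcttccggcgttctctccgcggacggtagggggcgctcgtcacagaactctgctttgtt
Bax, chr7:45466849-45467148, minus strand: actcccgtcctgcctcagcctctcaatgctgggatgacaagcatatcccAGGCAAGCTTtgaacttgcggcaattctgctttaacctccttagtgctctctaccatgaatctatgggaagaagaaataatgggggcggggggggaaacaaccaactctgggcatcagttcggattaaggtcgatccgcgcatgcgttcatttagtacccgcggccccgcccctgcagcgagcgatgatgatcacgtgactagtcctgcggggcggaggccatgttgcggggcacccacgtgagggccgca
Phlda3, chr1:135765835-135766134, plus strand: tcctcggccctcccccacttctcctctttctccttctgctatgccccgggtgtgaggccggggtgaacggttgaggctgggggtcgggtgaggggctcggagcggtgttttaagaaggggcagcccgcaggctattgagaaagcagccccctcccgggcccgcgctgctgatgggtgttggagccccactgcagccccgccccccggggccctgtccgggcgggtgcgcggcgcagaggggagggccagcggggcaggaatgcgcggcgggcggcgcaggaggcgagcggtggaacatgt

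None of the 10 genes was called between KO and WT over all 6 libraries. Their log2 fold changes lay between -0.61 (Cdkn2a) and 0.27 (Trp53inp1), with a median of -0.08, beside 0.01 over all genes tested. By edgeR, 0 rose and 0 fell, where 0.884% of all 13692 genes rose and 1.63% fell (2.51% in all). At an unadjusted p under 0.05 there was 1 of 10 (Cdkn2a), beside 2627 of all 13692 genes (19.2%). DESeq2, by which 3.12% of genes rose and 4.35% fell (7.46% in all), called 0 of the 10, as did limma-voom. KO replicate 3 had the highest level of all 6 libraries in 7 of the 10 genes, as it had in 31.2% of all genes tested. In 5 of them, Cdkn1a, Ccng1, Mdm2, Bax and Zmat3, KO replicates 1 and 2 were at the same time the lowest libraries of the 6, an arrangement seen in 9.68% of all genes; it was looked for after the values were seen. The groups overlapped in 9 of the 10 genes and not in Cdkn2a, where 28.4% of all genes did not overlap.

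**Figure D1:**
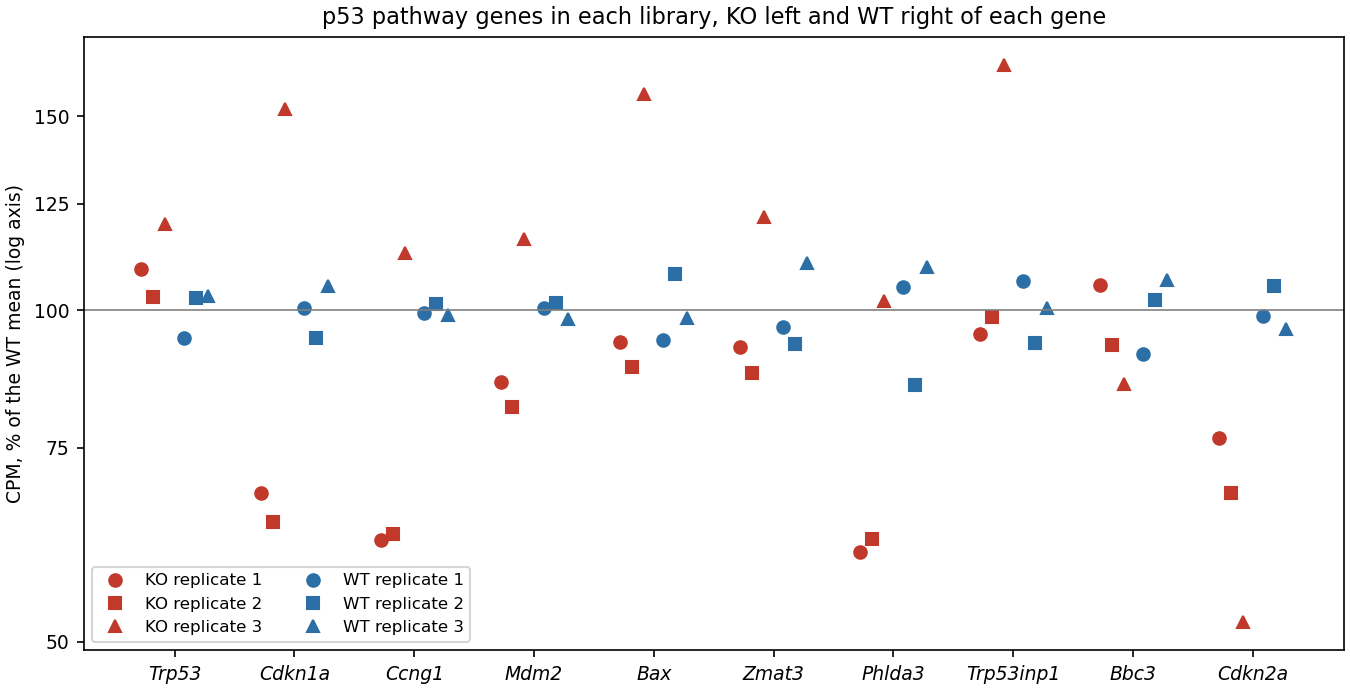
Level of each p53 pathway gene in each library, as a percent of the WT mean in CPM on a log axis, with KO libraries in red left of WT libraries in blue and a marker shape for each replicate number. KO replicate 3 (red triangle) stands above the other KO libraries in 8 genes and below them in Bbc3 and Cdkn2a, and all 3 KO libraries lie below all 3 WT libraries in Cdkn2a only.

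Levels were compared between genes per length, in TPM, a length-scaled transcript abundance, as the authors deposited it. Cdkn1a was the most abundant, with 429 ± 231 TPM in KO and 441 ± 35.0 TPM in WT (SD, n = 3 each). Bax averaged 319 TPM over the 6 libraries, Trp53 206, Ccng1 197, Phlda3 162, Mdm2 59.7, Trp53inp1 36.9, Bbc3 26.4, Cdkn2a 23.4 and Zmat3 19.9. The ranges over libraries of neighbours in this order overlapped, except between Bax and Trp53, Phlda3 and Mdm2, and Trp53inp1 and Bbc3.

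Trp53 (Entrez gene 22059, chromosome 11, 69580348 to 69591873, GRCm38.p6) had 167, 157 and 183 CPM in KO replicates 1 to 3, against 144, 157 and 158 CPM in WT replicates 1 to 3. KO replicates 1 and 3 were above every WT library and KO replicate 2 lay inside the WT range. The log2 fold change was 0.14 (SE 0.0830, edgeR adjusted p = 0.408). The main transcript took 86.9 ± 1.01% of Trp53 counts in KO and 87.2 ± 1.35% in WT (SD over 3 libraries each; p = 0.8, exact permutation).

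Mdm2 (Entrez gene 17246, chromosome 10, 117688875 to 117710758), both the inhibitor and a target of p53, had 76.5, 72.6 and 103 CPM in KO replicates 1 to 3, against 89.2, 90.3 and 87.2 CPM in WT replicates 1 to 3. The WT libraries lay close together, with KO replicates 1 and 2 below and KO replicate 3 above them. The log2 fold change, -0.08 (SE 0.141; adjusted p = 0.816, edgeR), averages libraries on either side of WT.

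Cdkn1a (Entrez gene 12575, chromosome 17, 29090979 to 29100722) encodes p21, the CDK inhibitor through which p53 halts the cell cycle. It had 256, 241 and 571 CPM in KO replicates 1 to 3, against 377, 353 and 394 CPM in WT replicates 1 to 3. KO replicates 1 and 2 held 68.2% and 64.2% of the WT mean, and KO replicate 3 held 152.4%. The log2 fold change was -0.07 (SE 0.341, edgeR adjusted p = 0.938), with an SD of 187 CPM in KO and 20.4 CPM in WT.

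Both Cdkn1a transcripts encode 159 codons in the GENCODE annotation and differ in where they start, at 29090979 (upstream) and 29093769 (downstream) on chromosome 17. The upstream one, next to the pair of half-sites shown above, varied most. It had 10.7, 14.8 and 102 TPM in KO replicates 1 to 3, against 29.99, 36.9 and 40.6 TPM in WT replicates 1 to 3. KO replicate 3 was far above and KO replicates 1 and 2 were below every WT library. The downstream transcript had 288, 278 and 593 TPM in KO replicates 1 to 3, against 421, 365 and 429 TPM in WT replicates 1 to 3. Here too KO replicate 3 was above and KO replicates 1 and 2 were below every WT library, over a smaller span relative to its level. As a share of Cdkn1a counts the upstream transcript took 3.63%, 5.15% and 14.9% in KO replicates 1 to 3, and 6.75%, 9.33% and 8.77% in WT replicates 1 to 3. Exact (Clopper-Pearson) 95% intervals, which cover counting error only, were 3.12 to 4.21%, 4.52 to 5.85% and 14.3 to 15.6% in KO, and together spanned 6.19 to 10.1% in WT. The group means of 7.90 ± 6.13% in KO and 8.28 ± 1.36% in WT did not differ beyond their spread (SD over 3 libraries each; p = 1.0, exact permutation, two-sided). That estimate rests on how the authors' counter split reads between transcripts that share exons, whose error is not given.

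Ccng1 (Entrez gene 12450, chromosome 11, 40748552 to 40755309), which encodes cyclin G1, a p53 target that acts with the phosphatase PP2A on Mdm2, had 212, 215 and 386 CPM in KO replicates 1 to 3, against 341, 348 and 339 CPM in WT replicates 1 to 3. The 3 WT libraries had an SD of 4.36 CPM, KO replicates 1 and 2 held 61.9% and 62.7% of their mean, and KO replicate 3 held 112.6%. The log2 fold change was -0.34 (SE 0.243, edgeR adjusted p = 0.508).

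Among the cell death genes, Bax and Trp53inp1 were high in KO replicate 3 alone. Bax (Entrez gene 12028, chromosome 7, 45461695 to 45466903), the effector that opens the outer mitochondrial membrane, had 104, 98.3 and 174 CPM in KO replicates 1 to 3, against 104, 119 and 109 CPM in WT replicates 1 to 3. KO replicate 3 held 157.1% of the WT mean, while KO replicates 1 and 2 lay just under the lowest WT library. Its log2 fold change was 0.18 (SE 0.228, edgeR adjusted p = 0.738). Trp53inp1 (Entrez gene 60599, chromosome 4, 11156441 to 11174379), which promotes p53 activity and autophagy, had 77.2, 79.96 and 136 CPM in KO replicates 1 to 3, against 86.2, 75.7 and 81.6 CPM in WT replicates 1 to 3. KO replicates 1 and 2 were inside the WT range and KO replicate 3 was at 167.1% of the WT mean, and the log2 fold change was 0.27 (SE 0.228; adjusted p = 0.587, edgeR).

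Phlda3 was low in KO replicates 1 and 2 without being raised in KO replicate 3. This gene (Entrez gene 27280, chromosome 1, 135766085 to 135769134) encodes a p53 target that blocks the survival kinase Akt. It had 71.1, 73.1 and 120 CPM in KO replicates 1 to 3, against 124, 101 and 129 CPM in WT replicates 1 to 3. KO replicates 1 and 2 held 60.3% and 62.0% of the WT mean, KO replicate 3 lay inside the WT range, and WT replicate 2 was the lowest of the WT libraries. The log2 fold change was -0.42 (SE 0.227, edgeR adjusted p = 0.380).

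Bbc3 (Entrez gene 170770, chromosome 7, 16308398 to 16318334) encodes PUMA, a BH3-only protein that sets off apoptosis. It had 23.7, 20.95 and 19.3 CPM in KO replicates 1 to 3, against 20.5, 23.0 and 24.0 CPM in WT replicates 1 to 3. Unlike the other death genes it was lowest in KO replicate 3, and the groups overlapped (log2 fold change -0.08, SE 0.113, edgeR adjusted p = 0.769). Zmat3 (Entrez gene 22401, chromosome 3, 32334792 to 32365665), an RNA-binding target of p53, had 64.8, 61.4 and 85.1 CPM in KO replicates 1 to 3, against 67.6, 65.2 and 77.3 CPM in WT replicates 1 to 3. KO replicate 3 was highest, but the span was narrow and the log2 fold change was 0.01 (SE 0.144, edgeR adjusted p = 0.986). A long non-coding RNA gene, 4930429B21Rik, overlaps Zmat3, and since the strand setting of the counts is not given in the sources used here, their reads cannot be told apart.

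Cdkn2a (Entrez gene 12578, chromosome 4, 89274473 to 89294619) was the one gene of the 10 lower in every KO library. It had 8.37, 7.46 and 5.69 CPM in KO replicates 1 to 3, against 10.8, 11.5 and 10.5 CPM in WT replicates 1 to 3, from 154, 136 and 115 counts in KO and 212, 211 and 197 counts in WT. All KO libraries lay below all WT libraries, with KO replicate 3 lowest. The log2 fold change was -0.61 (SE 0.173), which did not pass the adjustment over all genes (edgeR adjusted p = 0.139), and 14.5% of all genes tested were likewise lower in every KO library. Over the 14 alternative settings the adjusted p ran from 0.0121 to 0.396 and the log2 fold change from -0.73 to -0.43.

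The Ink4a and Arf transcripts were both lower in KO, Ink4a by the larger ratio. The annotation gives Ink4a 168 codons and a start at 89282192, and gives the Arf transcript 169 codons and a start at 89294653. The Ink4a transcript had 2.71, 2.91 and 3.23 TPM in KO replicates 1 to 3, against 7.70, 7.67 and 7.67 TPM in WT replicates 1 to 3, from 18.1, 18.5 and 22.5 estimated counts in KO and 53.6, 52.8 and 51.2 in WT. Every KO library was well below every WT library, and KO replicate 3 sat beside the other KO libraries here. The Arf transcript had 18.5, 16.8 and 12.01 TPM in KO replicates 1 to 3, against 20.7, 20.9 and 19.8 TPM in WT replicates 1 to 3, also lower in each KO library but by less. As for Cdkn1a, these values rest on how the authors' counter split reads between transcripts, and the error of that split is not given.

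The Ink4a share of Cdkn2a counts was 11.7%, 13.6% and 19.6% in KO replicates 1 to 3, against 25.3%, 25.04% and 26.0% in WT replicates 1 to 3. Exact 95% intervals reached from 7.08% to 28.5% over the KO libraries and from 19.4% to 32.6% over the WT libraries. That of KO replicate 1 ended at 17.8%, below those of WT. Those of KO replicates 2 (8.04 to 20.1%) and 3 (13.1 to 28.5%) overlapped the WT intervals, that of KO replicate 2 only at its upper edge. Overlap of intervals does not show that shares are alike, and single libraries were not tested against WT. The means were 14.98 ± 4.11% in KO and 25.4 ± 0.488% in WT (SD, n = 3 each), a difference of -10.5 percentage points with a two-sided exact permutation p of 0.1, the smallest that 3 against 3 allows. Over the 28 transcript shares tested in 9 genes its Benjamini-Hochberg adjusted value was 0.7 (exact permutation tests). Of these shares, 2 were higher and 2 lower in every KO library, namely Ink4a, its complement Arf, and a pair from Bbc3. The main Bbc3 transcript held 57.6 ± 5.55% of Bbc3 counts in KO and 68.2 ± 5.42% in WT (SD, n = 3 each). This difference of -10.55 points had the same exact permutation p of 0.1 and adjusted value of 0.7. The other Bbc3 transcript had only 0 to 19.6 estimated counts per library. In an edgeR fit of all transcripts the Ink4a log2 fold change was -1.43 (SE 0.432, adjusted p = 0.446) and that of Arf was -0.42 (SE 0.266, adjusted p = 0.894). This fit, added after the values were seen, called 0 of 33288 transcripts (0%), with 2526 at an unadjusted p under 0.05.

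**Figure D2:**
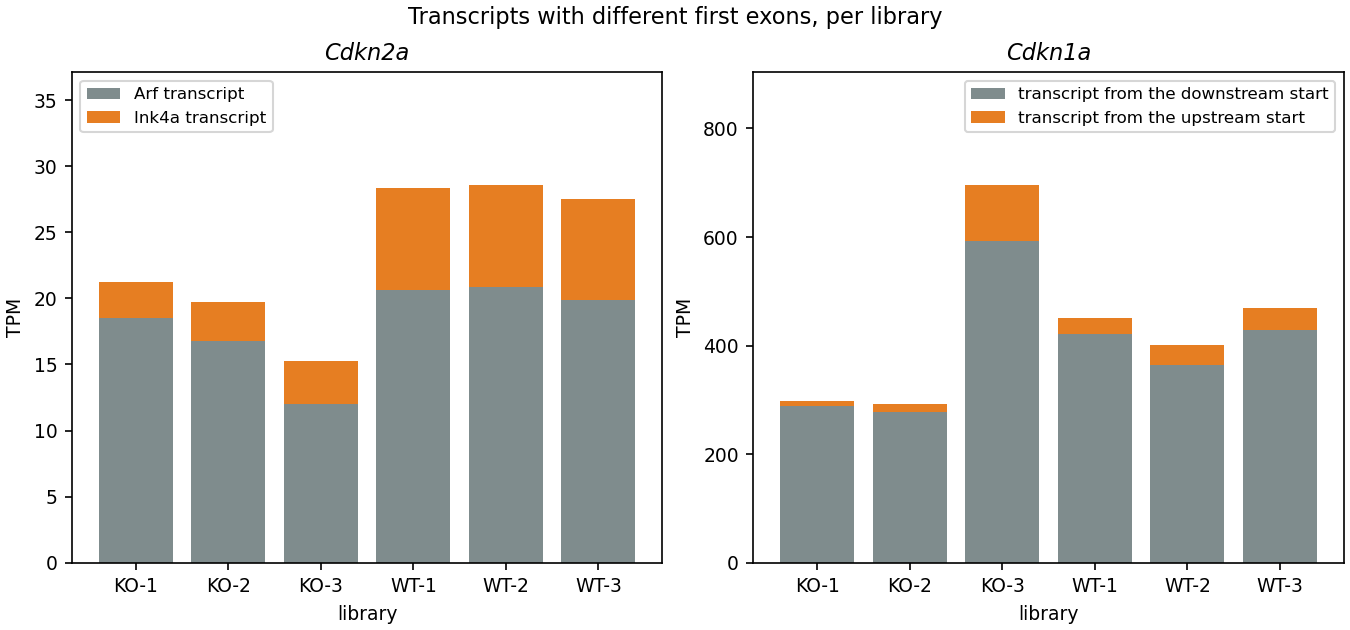
Stacked bars of deposited TPM in each library, KO left of WT, for the Arf (grey) and Ink4a (orange) transcripts of Cdkn2a and for the downstream (grey) and upstream (orange) start transcripts of Cdkn1a. The Ink4a part stands at 2.71 to 3.23 TPM in KO and 7.67 to 7.70 TPM in WT, and the upstream Cdkn1a part is tallest in KO replicate 3, at 102 TPM.

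With KO replicate 3 left out, 5 of the 10 genes fell and 0 rose, in a table where 16.1% of genes fell and 12.5% rose. Ccng1 fell by 0.68 on the log2 scale (SE 0.0514, edgeR adjusted p = 0.000148), Cdkn1a by 0.59 (SE 0.0686, adjusted p = 0.000905) and Phlda3 by 0.71 (SE 0.110, adjusted p = 0.00320). Mdm2 fell by 0.25 (SE 0.0574, adjusted p = 0.0159) and Cdkn2a by 0.46 (SE 0.116, adjusted p = 0.0224). Bax (-0.13), Zmat3 (-0.15), Trp53inp1 (-0.04), Bbc3 (-0.01) and Trp53 (0.09) were not called there, with edgeR adjusted p from 0.205 to 0.970. These calls rest on the spread between 2 KO libraries that lie close to each other. In the same fit all 8 adipocyte, all 9 macrophage and all 8 muscle markers fell, 3 of 5 endothelial markers fell and 1 of 10 chondrocyte markers rose; their part in the result was not tested. Without any other single library 0 of the 10 were called. Of these fits only that without WT replicate 2 called any gene, with 0.266% of all genes higher and 0.999% lower (1.27% in all). The rest called 0 of all genes, so a count of 0 among the 10 cannot set them apart there. In each of the rest, 1 of the 10 was at an unadjusted p under 0.05 (edgeR), beside 1555 to 2345 of all genes. When WT replicate 2 was dropped along with KO replicate 3, 6 of the 10 fell and 0 rose, where 21.7% of all genes fell and 17.5% rose (39.2% in all), and Zmat3 was the added one.

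**Figure D3:**
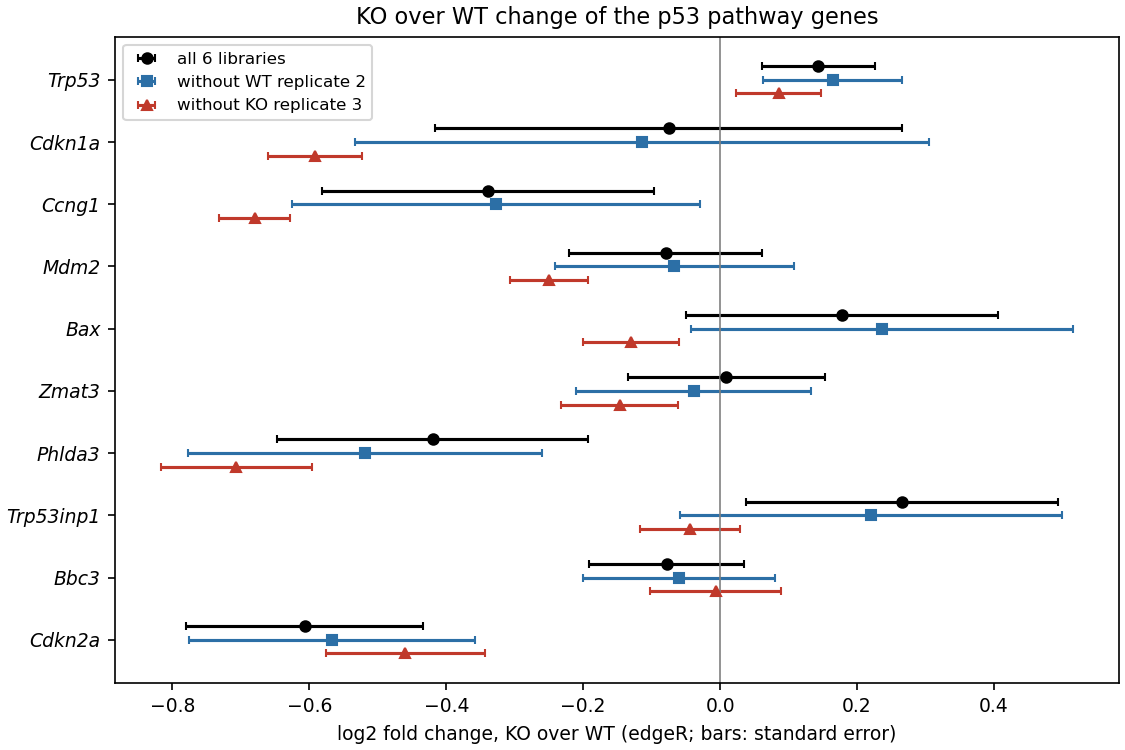
Log2 fold change of each p53 pathway gene, KO over WT, with its standard error from the edgeR fit of all 6 libraries (black), without WT replicate 2 (blue) and without KO replicate 3 (red). Without KO replicate 3, Cdkn1a stands at -0.59 and Ccng1 at -0.68, and Cdkn2a is below 0 in all 3 fits.

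Of 30 other genes known as p53 targets, Sesn2 alone rose, 0 fell and 29 were not called, with a median log2 fold change of 0.04; 0.884% of all genes rose and 1.63% fell. At an unadjusted p under 0.05 were 10 of the 30, beside 19.2% of all genes. Sesn2, a stress-induced inhibitor of mTORC1 that is also a target of ATF4, had 94.8, 105 and 86.0 CPM in KO replicates 1 to 3, against 59.9, 63.7 and 64.7 CPM in WT replicates 1 to 3. Every KO library was above every WT library, and the log2 fold change was 0.60 (SE 0.0918, edgeR adjusted p = 0.0355). The call was lost without WT replicate 2 (adjusted p = 0.0945) and on leaving out any other single library except KO replicate 3, when 0 of all genes were called and 1555 to 2345 were at an unadjusted p under 0.05. DESeq2, by which 3.12% of all genes rose and 4.35% fell, also called Gadd45a (log2 fold change 0.55) and Gdf15 (1.62) higher and Pmaip1 (-1.59) lower. Without KO replicate 3 the edgeR log2 fold change of Gdf15 was 0.71.

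Several of these targets differed between the groups without passing edgeR's adjustment; the 3 below were chosen after their values were seen. Gdf15, a stress-induced hormone that both p53 and ATF4 raise, had 25.2, 20.3 and 83.0 CPM in KO replicates 1 to 3, against 11.8, 17.0 and 13.1 CPM in WT replicates 1 to 3 (edgeR adjusted p = 0.199). Gadd45a, a growth arrest gene, had 56.5, 53.3 and 70.9 CPM in KO replicates 1 to 3, against 43.8, 36.8 and 43.0 CPM in WT replicates 1 to 3 (edgeR adjusted p = 0.0964). Pmaip1, which encodes the BH3-only protein NOXA, had 1.304, 1.26 and 2.52 CPM in KO replicates 1 to 3, against 5.49, 4.14 and 5.81 CPM in WT replicates 1 to 3 (edgeR adjusted p = 0.0726). In Gdf15 and Gadd45a each KO library was above each WT library, and in Pmaip1 each was below. Of the 30 genes, 6 were higher and 5 lower in every KO library, where 28.4% of all genes did not overlap. Leaving out KO replicate 3 gave 5 that rose and 11 that fell, where 12.5% of all genes rose and 16.1% fell, and moved the median to -0.19.

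Among genes that act on p53, 18 of 19 listed were tested; 0 were called by edgeR or DESeq2 (3 at an unadjusted p under 0.05, beside 19.2% of all genes), and the median log2 fold change was 0.11. The most abundant were Usp7, which removes ubiquitin from Mdm2 and p53 (114 ± 5.43 CPM in KO and 103 ± 1.79 CPM in WT), and the p53 ubiquitin ligase genes Rchy1 (42.6 ± 2.54 CPM in KO and 35.2 ± 0.240 CPM in WT) and Cop1 (112 ± 6.18 CPM in KO and 99.4 ± 1.16 CPM in WT; SD, n = 3 each). All 3 were higher in every KO library, with edgeR adjusted p of 0.318, 0.108 and 0.237. No other of the 18 was higher in every KO library and 1 was lower in each, where 14% of all genes were higher and 14.5% lower. With KO replicate 3 left out, which called 12.5% of all genes higher and 16.1% lower, 3 rose, among them the Mdm2 relative Mdm4 (0.37, edgeR adjusted p = 0.00310), and 3 fell.

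Of 10 tested of 13 other BCL2 family genes, 0 were called by edgeR or DESeq2 (2 at an unadjusted p under 0.05, beside 19.2% of all genes), with a median log2 fold change of 0.23. Bak1, the partner of Bax, was lower in every KO library, with 85.7 ± 4.00 CPM in KO and 102 ± 4.26 CPM in WT (edgeR adjusted p = 0.126; SD, n = 3 each). The survival genes Mcl1 (136, 139 and 191 CPM) and Bcl2l1 (73.6, 73.0 and 120 CPM in KO replicates 1 to 3) were both highest in KO replicate 3, against 145 to 160 CPM and 68.1 to 78.5 CPM in WT. Leaving out KO replicate 3 gave 2 that rose and 3 that fell of 11 tested, where 12.5% of all genes rose and 16.1% fell, and moved the median to -0.0033.

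Among the other CDK inhibitors and the RB family, 0 of 8 were called by edgeR or DESeq2 (1 at an unadjusted p under 0.05, beside 19.2% of all genes), and the median log2 fold change was -0.26. Cdkn1c, which encodes p57, the CDK inhibitor of maturing chondrocytes, ran opposite to Cdkn1a across the KO libraries. It had 859, 797 and 129 CPM in KO replicates 1 to 3, against 513, 611 and 435 CPM in WT replicates 1 to 3. KO replicates 1 and 2 were above and KO replicate 3 was below every WT library. Cdkn1b (p27) followed that order with 71.6, 68.8 and 45.0 CPM in KO replicates 1 to 3, against 52.4 to 56.1 CPM in WT, and Cdkn2b (p15) had 39.1, 39.6 and 16.7 CPM in KO replicates 1 to 3, against 38.7 to 45.1 CPM in WT. In 3 of the 8 genes, Cdkn2c, Cdkn2d and Rbl1, KO replicate 3 was instead the highest library and KO replicates 1 and 2 were the lowest, as in Cdkn1a. That arrangement held in 9.68% of all genes tested and was looked for after the values were seen. Leaving out KO replicate 3, Cdkn1c (0.68, edgeR adjusted p = 0.00610) and Cdkn1b (0.39, adjusted p = 0.00324) rose and 4 fell, where 12.5% of all genes rose and 16.1% fell.

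Cell cycle genes that p53 represses through p21 and the DREAM complex followed the same split between KO libraries as Cdkn1a, and in the same direction. Of 18, 0 were called by edgeR or DESeq2 (0 at an unadjusted p under 0.05, beside 19.2% of all genes), with a median log2 fold change of -0.47. In all 18 KO replicate 3 was the highest library of 6 and KO replicates 1 and 2 were the lowest, which held in 9.68% of all genes tested. Their summed level was 433, 432 and 1585 CPM in KO replicates 1 to 3, against 1049, 996 and 1067 CPM in WT replicates 1 to 3. The 3 most abundant were the ribonucleotide reductase gene Rrm2, with 33.7, 33.7 and 182 CPM in KO replicates 1 to 3, the cyclin gene Ccna2, with 32.0, 32.4 and 133 CPM there, and the survivin gene Birc5, with 11.4, 9.65 and 43.7 CPM there. The WT libraries had 94.4 to 107 CPM of Rrm2, 82.8 to 92.9 CPM of Ccna2 and 33.0 to 34.2 CPM of Birc5. Leaving out KO replicate 3 gave 16 that fell and 0 that rose, where 16.1% of all genes fell and 12.5% rose, and moved the median to -1.55. The part of proliferation in the library differences of the p53 targets was not tested.

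**Figure D4:**
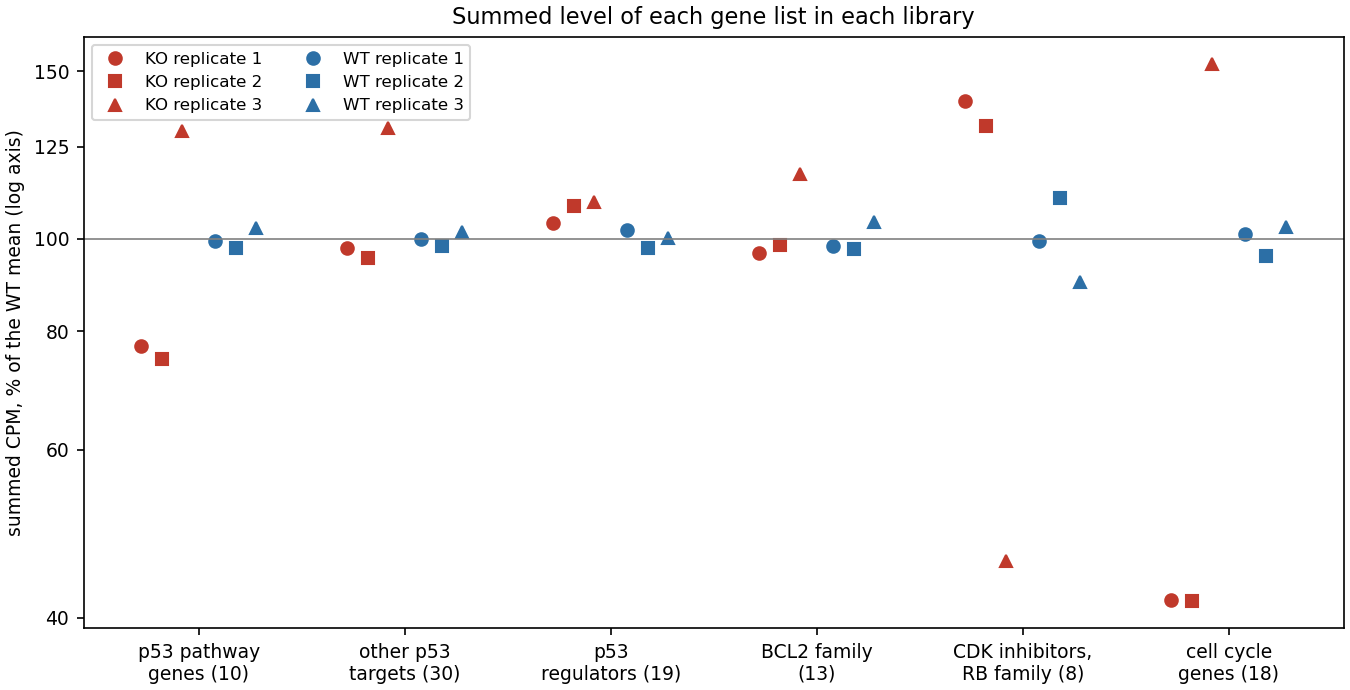
Summed CPM of each gene list in each library, as a percent of the WT mean on a log axis, KO (red) left of WT (blue), with the number of listed genes in brackets. KO replicate 3 is the highest library for the p53 pathway genes (1783 CPM), the cell cycle genes (1585 CPM), the other p53 targets (1233 CPM) and the BCL2 family (558 CPM). It is also the highest for the p53 regulators (915 CPM, beside 907 CPM in KO replicate 2). It is the lowest for CDK inhibitors and the RB family (354 CPM), a sum of which Cdkn1c alone makes 859, 797 and 129 CPM in KO replicates 1 to 3.

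The genes nearest to Cdkn1a in their library pattern were sought among 11879 genes, by the root mean square difference of log2 CPM centred on each gene's mean over the 6 libraries. The nearest was Polr3g, a subunit of RNA polymerase III (0.0498), followed by the DNA helicase gene Blm (0.0612), the spindle gene Haus6 (0.0617), the centromere gene Cenpn (0.0621) and Wee1, a kinase that restrains entry into mitosis (0.0651). Among the other 9 genes of the p53 set the nearest was Ccng1 (0.168) and the farthest was Cdkn2a (0.602). These 5 genes were closer to Cdkn1a than any other gene of the p53 set, but they were picked as the nearest of 11879, against 9 in that set. No conclusion is drawn from this comparison.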

How the data were processed

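Both deposited tables gave estimated counts, TPM and FPKM as the authors made them, for genes under Entrez identifiers and for RefSeq transcripts; FPKM was not used. Per the labels' protocols, reads were aligned with STAR 2.7.5a to mm10, counted with featureCounts 2.0.0 on GENCODE vM25 and compared with DESeq2 1.28.1. The tables hold other identifiers, and 12.9% of gene values are not whole, so what made them, and its strand setting, is not given in the sources used here. Groups came from sample titles. Estimated counts were rounded, filtered with filterByExpr (minimum count 10, total 15), scaled by TMM and tested by edgeR 4.0.16 quasi-likelihood (R 4.3.3), KO over WT, two-sided, with Benjamini-Hochberg adjustment over 13692 genes; called means an adjusted p under 0.05. Rose and fell are used of called genes. The 10 genes and the other lists were chosen with earlier results of these data known. Named genes were the 10, Ppp1r15b, the called members of each p53-related list or, with none called, its 3 highest by TPM, and the 5 nearest to Cdkn1a; others were chosen after their values were seen. Transcript shares were tested in genes with at least 20 counts in every library by exact permutation (SciPy 1.17.1). Alternatives were DESeq2 1.42.0, limma-voom (limma 3.58.1), other scaling and filters, the replicate number as a block, and libraries left out. Library pairs within a group differed beyond sampling noise (chi-square per degree of freedom 3.12 to 134). Positions and promoters came from RefSeq GRCm38.p6, the build mm10 stands for, which matched 17547 of 17666 identifiers, and transcript starts from GENCODE vM21. The edgeR script was tested on simulated data.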

Additional observations from a re-analysis of the deposited data

How the results depend on the processing

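The count of p53 pathway genes called stayed at 0 higher and 0 lower under DESeq2 size factors, library size only, both filters, limma-voom, DESeq2 and the replicate block. Leaving out 1 library gave 0 to 5 lower and 0 higher, and leaving out both KO replicate 3 and WT replicate 2 gave 6 lower, with Zmat3 (-0.20, edgeR adjusted p = 0.0400) among them. Over all genes, 121 rose and 223 fell; DESeq2 gave 474 and 661, requiring 1 CPM in every library left 148 that fell, the block 1 and 4, leaving out 1 library 0 to 1731 and 0 to 2231, and leaving out both 2416 and 3000. The other p53 targets gave 3 higher and 1 lower by DESeq2, 0 higher with the block, 0 to 5 higher and 0 to 11 lower without 1 library, and 7 and 14 without both. Leaving out 1 library gave 0 to 3 higher and 0 to 3 lower for p53 regulators, 0 to 2 and 0 to 4 for CDK inhibitors, 0 to 2 and 0 to 3 for the BCL2 family and 0 to 16 lower for cell cycle genes; without both these were 3 and 4, 2 and 4, 2 and 4, and 16 lower. The cause of these moves was not tested.

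Directions turned for small estimates. Leaving out 1 library moved the log2 fold change of Cdkn1a from -0.59 to 0.14, of Mdm2 from -0.25 to 0.0179, of Bax from -0.13 to 0.33, of Zmat3 from -0.15 to 0.10 and of Trp53inp1 from -0.0437 to 0.41. Zmat3 was also at -0.00525 with the 1 CPM filter, at -0.00207 with the block and at -0.00121 by limma-voom. Without both libraries Bax was at -0.0799, Trp53inp1 at -0.0973 and Bbc3 at 0.00469. The upstream share of Cdkn1a differed by -3.89 to 1.75 percentage points without 1 library, its transcript's log2 fold change ran from -1.53 to 0.649 and that of the downstream transcript from -0.55 to 0.0809. Trp53, Ccng1, Phlda3, Cdkn2a and the Ink4a share kept their direction in every alternative run. Deviations of same-numbered libraries from their group means correlated at -0.143, 0.215 and 0.238, and those of differently numbered libraries at -0.261 to 0.255. With 3 libraries in each group these values cannot tell whether the replicate numbers pair the libraries. For genes such as Cdkn2a, with 115 to 212 counts, depth limits what can be told apart.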

Other observations

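The p53 relatives Trp63 and Trp73 were also measured. Trp63 had 5.65, 7.08 and 2.52 CPM in KO replicates 1 to 3, against 10.3, 9.79 and 9.16 CPM in WT replicates 1 to 3, lower in every KO library (log2 fold change -0.94, SE 0.362, edgeR adjusted p = 0.236). Trp73 had at most 1 count in any library and was not tested. Of the 3 Mdm2 transcripts in the deposited table, the least abundant had 2.04, 2.43 and 2.33 TPM in KO replicates 1 to 3, against 2.91, 3.66 and 3.44 TPM in WT replicates 1 to 3, lower in every KO library, with a share of Mdm2 counts of 8.21 ± 1.58% in KO and 11.4 ± 1.54% in WT (SD over 3 libraries each; p = 0.2, exact permutation, adjusted value 1.0 over 28 shares).

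The p53 half-site was in 11 of 34 promoter windows (32.4%) of the 30 other p53 targets, of which 25 genes were matched. It was in 1 of 14 windows (7.14%) of the cell cycle genes and 1 of 23 (4.35%) of the p53 regulators, beside 8.36% of all windows.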
